A study of Homo sapiens with 60 samples.

Results

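The Wnt/beta-catenin target genes AXIN2, LGR5, NKD1, RNF43, ZNRF3, SP5, TBX3, GLUL, LEF1 and NOTUM were followed in HepG2 cells treated with herbal extracts. These 10 genes were taken by name as beta-catenin targets. No measured value enters the rule, but the list was drawn up with earlier results of these data known. All 10 had a row in the count table of 60675 gene IDs, and all 10 were among the 16982 genes that could be tested. HepG2 is an established human liver tumour line. Cells were treated for 24 h with an ethanol extract of 1 of 4 single herbs (Polygalae Radix, Aucklandiae Radix, Menthae Herba, Saposhnikoviae Radix) or of 1 of 4 decoctions that combine herbs (Saengmaek-san, Guibi-tang, Soyo-san, Okbyeongpung-san), or with vehicle. Most extracts were given at a high dose of 500 ug/mL, a medium dose of 100 ug/mL and a low dose of 20 ug/mL. Polygalae Radix instead had 250, 50 and 10 ug/mL, whereas 280, 56 and 11.2 ug/mL were chosen for Aucklandiae Radix. The high doses of Polygalae Radix and Aucklandiae Radix had been set by inhibition of the cells, those of the others by the 500 ug/mL limit. There were 3 vehicle libraries. Each dose had 3 libraries for Guibi-tang, Menthae Herba, Saengmaek-san and Saposhnikoviae Radix, 2 for Aucklandiae Radix, Soyo-san and Polygalae Radix, and 1 for Okbyeongpung-san, which entered no test. Vehicle was DMSO, given as 0.1% in the sample labels and as 2% in the design text. Extracts were handled in sets of 2 numbered 11 to 14, while vehicle carries a set label of its own. The labels do not say whether libraries of a group came from separate cultures, and every p-value below is relative to a spread among libraries that may be technical.

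In the canonical Wnt pathway a destruction complex built on APC and AXIN1 marks beta-catenin for degradation until a Wnt ligand binds Frizzled and LRP receptors at the cell surface. Stabilized beta-catenin enters the nucleus, binds factors of the TCF/LEF family and switches on target genes, many of which encode inhibitors of the same pathway. In liver the pathway is active around the central vein, where it drives GLUL and other pericentral genes. HepG2 carries an activating deletion in CTNNB1, the gene for beta-catenin, so its target genes are on without added ligand.

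On GRCh38, in the GENCODE 29 annotation, 3 of the 10 genes lie on chromosome 17: AXIN2 (ENSG00000168646) at chr17:65528563-65561647, RNF43 (ENSG00000108375) at chr17:58352500-58417595 and NOTUM (ENSG00000185269) at chr17:81952507-81961840. On chromosome 12 are LGR5 (ENSG00000139292) at chr12:71439770-71586310 and TBX3 (ENSG00000135111) at chr12:114670254-114684164. The inhibitor and ligase genes NKD1 (ENSG00000140807) at chr16:50548330-50649249 and ZNRF3 (ENSG00000183579) at chr22:28883592-29057487 lie apart from these. The others are SP5 (ENSG00000204335) at chr2:170715351-170718078, GLUL (ENSG00000135821) at chr1:182381704-182392206 and LEF1 (ENSG00000138795) at chr4:108047545-108168956.

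TCF/LEF factors bind short DNA elements that share the core CTTTG. The stretch 5' of the SP5 start is shown because, among members with a promoter window, only SP5 matched the longer elements searched for here. The core alone also occurs in windows of RNF43 and LEF1. RefSeq promoter windows (GRCh38.p14) were present for 4 of the 10 members, GLUL, LEF1, RNF43 and SP5, in 6 windows. The 250 bases before each start were searched on both strands for CTTTGAA or CTTTGAT, and then for CTTTGTA or CTTTGTT. In the SP5 stretch, chr2:170715087-170715336 on the plus strand, the capitals mark the 3 matches, which do not overlap each other.
SP5: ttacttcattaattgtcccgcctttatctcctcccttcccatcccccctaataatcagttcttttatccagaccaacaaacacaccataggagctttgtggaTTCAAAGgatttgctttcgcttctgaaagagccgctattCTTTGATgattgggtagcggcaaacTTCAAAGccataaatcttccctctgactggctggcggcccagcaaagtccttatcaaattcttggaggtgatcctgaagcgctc
The matches began 148, 109 and 84 bases before the start, the outer ones as CTTTGAA on the minus strand and the middle one as CTTTGAT on the plus strand. Of all 35116 promoter windows, 12.0% held at least 1 match and 0.122% held 3 or more. The 5 windows of GLUL, LEF1 and RNF43 held none, which says only that these letters are not in those 250 bases.

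The 60 libraries held 17.5 to 38.9 M counts, with a median of 23.7 M. Genes of hepatocytes were present in every library: ALB had at least 3260 CPM (counts per 1 M, after TMM scaling) and HNF4A at least 104. The summed level of the 9 hepatocyte markers ranged from 16600 to 53900 CPM and that of the 7 mitosis genes from 732 to 2190 CPM. Blood cell markers summed to 579 to 1690 CPM, of which LYZ made up 561 to 1660, while HBB was at 0 in all 60 libraries and PTPRC in 57. Stromal markers summed to 12.7 to 74.6 CPM, with DCN at 0 in 60 but ACTA2 at 7.58 to 60.4 and PDGFRB at 4.62 to 15.7. Endothelial markers summed to 2.09 to 6.35 CPM, with KDR at 0 in 59 but PECAM1 at 1.61 to 5.93. Biliary and gut markers summed to 135 to 569 CPM, with CFTR at 0 in 59. Of these, VIL1 at 73.4 to 356 and KRT19 at 56.3 to 226 CPM were present in every library. In vehicle 15.8% to 19.1% of counts were mitochondrially encoded, against 8.0% to 17.7% in the tested extract groups.

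In the libraries with the fewest, the targets other than LEF1 had 402 (LGR5) to 7670 (GLUL) counts. In vehicle AXIN2, which encodes a scaffold of the destruction complex and is a widely used readout of the pathway, was at 162, 165 and 166 CPM. NKD1, whose product binds Dishevelled and restrains the pathway, was at 621, 635 and 637 CPM. NOTUM, a secreted enzyme that removes the lipid from Wnt ligands, was at 443, 490 and 480 CPM. RNF43 and ZNRF3, a pair of membrane ubiquitin ligases that clear Frizzled from the surface, averaged 189 ± 4.96 and 166 ± 5.98 CPM (SD, n = 3). LGR5, an R-spondin receptor known as a stem cell marker, averaged 154 ± 2.66 CPM. SP5 and TBX3, transcription factors, averaged 230 ± 31.2 and 119 ± 0.592 CPM. GLUL, the glutamine synthetase of pericentral hepatocytes, averaged 441 ± 5.55 CPM. LEF1, itself a nuclear partner of beta-catenin, had 1 to 13 counts per library with a median of 5, and its level ran from 0.0422 to 0.521 CPM. LEF1 was not called between doses of any extract or at any high dose against vehicle, and its intervals were wide, for example a log2 fold change from -0.03 to 2.17 for Polygalae Radix at high against low dose. Its 1 call was at the low dose of Guibi-tang, with 3, 4 and 3 counts against 7, 5 and 9 in vehicle (-1.27 ± 0.52, adjusted p = 0.048, edgeR). That call was lost with no filter on low counts (adjusted p = 0.144) and with the trend of GC content and gene length removed (0.0737).

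**Figure D1:**
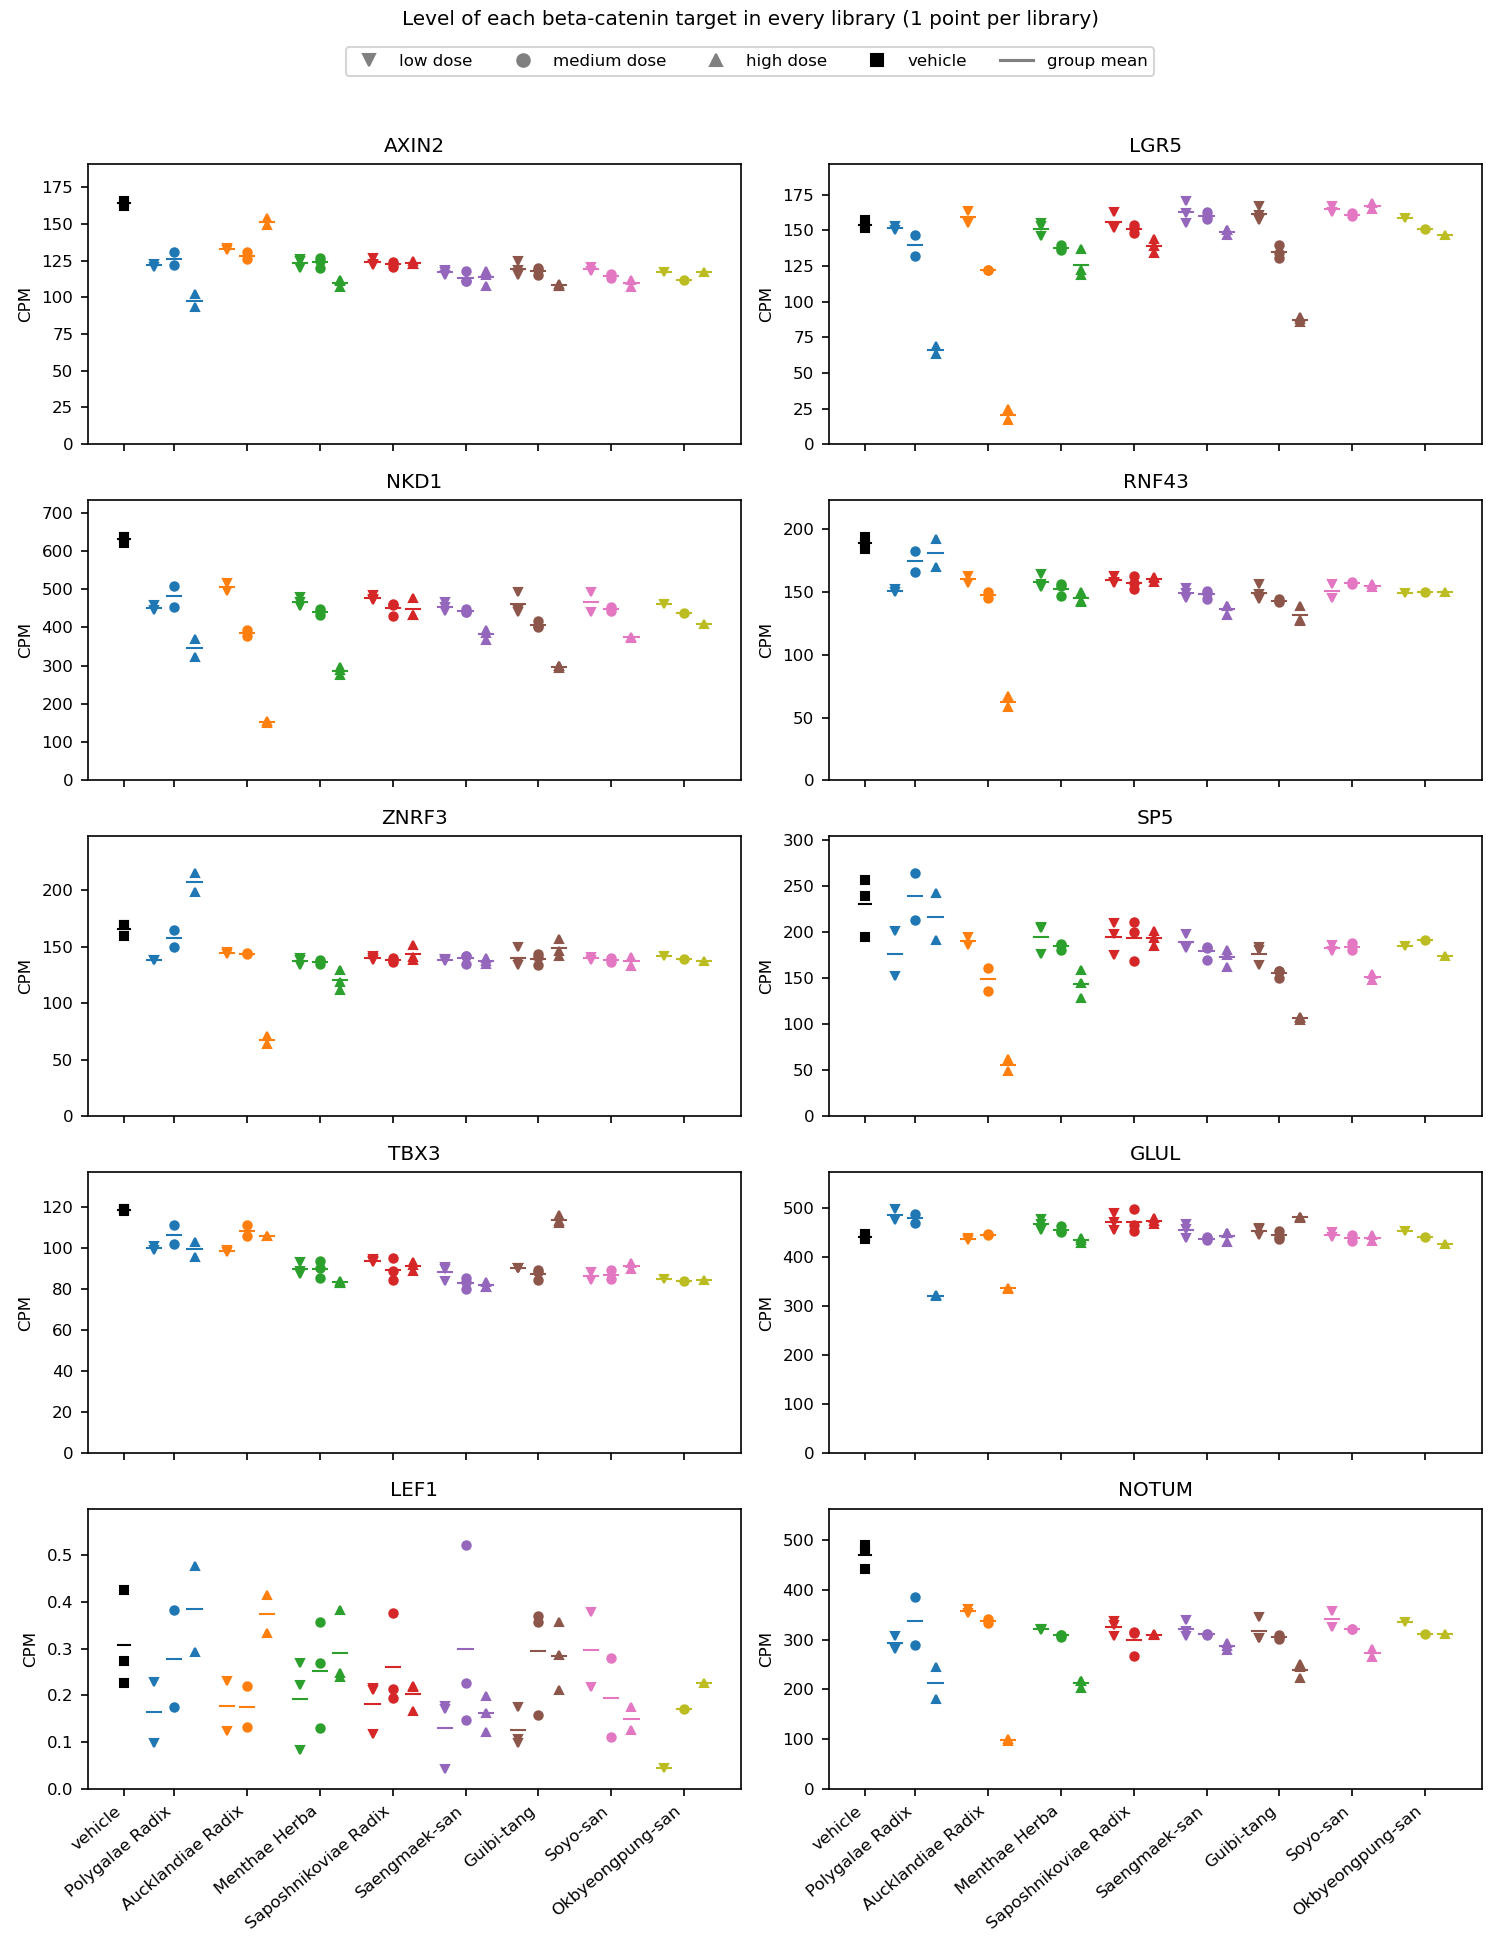
Level of each of the 10 targets in CPM (vertical axes, linear from 0) in every library, grouped on the horizontal axes by vehicle and by extract with low, medium and high dose from left to right; points are libraries and short lines group means. AXIN2 is highest in vehicle, at 162 to 166 CPM, while LGR5 and NKD1 drop to 16.8 to 24.6 and 151 to 156 CPM at the high dose of Aucklandiae Radix.

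Across the 25 groups the targets covered different ranges. LGR5 spanned 8.07-fold between its lowest group mean, 20.7 CPM at the high dose of Aucklandiae Radix, and its highest, 167 CPM at the high dose of Soyo-san. The spans of NOTUM, SP5, NKD1, ZNRF3 and RNF43 were 4.84-fold, 4.26-fold, 4.12-fold, 3.05-fold and 3.01-fold, and for each of them the lowest group was again the high dose of Aucklandiae Radix. AXIN2, GLUL and TBX3 moved less, with spans of 1.68-fold, 1.52-fold and 1.45-fold. Ordered by level, most neighbouring groups shared part of their range. Of 24 neighbouring pairs the libraries were apart in 2 (LEF1) to 8 (TBX3), with 4 for AXIN2, 3 for LGR5 and 6 for NKD1. Groups of 1 or 2 libraries come apart more easily. The same count was not made for all tested genes, so these numbers do not set the targets apart from other genes.

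Vehicle was the highest group for AXIN2, NKD1, RNF43, TBX3 and NOTUM. For AXIN2, NKD1, TBX3 and NOTUM each of the 57 extract libraries lay below every vehicle library. The same held for 56 of the 57 for RNF43 and 54 for ZNRF3, and for 44 for SP5, 34 for LEF1, 31 for LGR5 and 12 for GLUL. How many of all tested genes lay apart from vehicle in this way was not counted. At low dose against vehicle, edgeR called 5656 (Aucklandiae Radix) to 6807 (Guibi-tang) of the 16982 genes in either direction. In the 7 tested extracts the log2 difference of low dose from vehicle ran from -0.48 to -0.30 for AXIN2, from -0.47 to -0.32 for NKD1, from -0.67 to -0.39 for NOTUM and from -0.45 to -0.24 for TBX3. For LGR5 it ran from -0.02 to 0.11 and for GLUL from -0.01 to 0.15. At the high doses the difference from vehicle ran from -2.04 to -0.49 for NKD1 and from -2.27 to -0.59 for NOTUM. Vehicle had a set label of its own, so the treatment and the set cannot be told apart in these differences, and all extracts share the same 3 vehicle libraries. The dose comparisons below are therefore made within an extract, high against low dose. RNA was measured in bulk, so fewer cells and less RNA per cell cannot be told apart.

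AXIN2, the scaffold gene, was lower at the high dose of 3 extracts and higher at that of 1. With Polygalae Radix it was at 102 and 93.4 CPM at the high dose and 123 and 121 CPM at the low dose. Its mean there, 97.6 CPM, was the lowest of any group, and the log2 fold change was -0.33 ± 0.05 (SE, adjusted p = 2.16e-08, edgeR). Its libraries at the high dose of Menthae Herba were at 107, 112 and 111 CPM and at the low dose at 126, 120 and 125 CPM, a change of -0.18 ± 0.04 (adjusted p = 2.53e-04). Guibi-tang gave 108, 108 and 109 against 125, 119 and 115 CPM, a change of -0.15 ± 0.04 (adjusted p = 0.00113). With Aucklandiae Radix the order was the opposite: 154 and 149 CPM at the high dose against 132 and 134 CPM at the low dose, a change of 0.18 ± 0.04 (adjusted p = 3.48e-04). High and low libraries did not overlap in any of these 4 extracts. Nor did they with Soyo-san, at 107 to 112 against 118 to 121 CPM, where AXIN2 was not called. How many of all tested genes lay apart between doses was not counted. The high dose of Aucklandiae Radix still lay below the 162 to 166 CPM of vehicle, with a log2 difference of -0.12 ± 0.04, which was not called without replicate 3 of that dose (-0.10) and became 0.10 once a trend with GC content and gene length was removed.

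NKD1 was the target called in the most extracts, lower at the high dose in 6 of 7. Aucklandiae Radix took it to 151 and 156 CPM from 516 and 494 CPM, 3.3-fold lower (log2 -1.72 ± 0.06, adjusted p = 6.14e-29). Menthae Herba took it to 276, 288 and 295 CPM from 480, 465 and 455 CPM, 1.63-fold lower (adjusted p = 4.10e-17). The 3 high-dose libraries of Guibi-tang, at 299, 298 and 294 CPM, also lay far under its low-dose libraries at 493, 441 and 446 CPM, 1.55-fold lower (adjusted p = 9.06e-16). Smaller falls were called with Polygalae Radix (1.31-fold), Soyo-san (1.25-fold) and Saengmaek-san (1.19-fold). Saposhnikoviae Radix gave 476, 431 and 433 CPM against 473, 472 and 484 CPM, which overlapped, with a 95% interval of the log2 change from -0.18 to 0.00.

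NOTUM was called lower in 5 extracts, those in which NKD1 was lower without Saengmaek-san. At the high dose of Aucklandiae Radix it was at 99.3 and 95.4 CPM against 354 and 362 CPM at the low dose, 3.69-fold lower (log2 -1.88 ± 0.09, adjusted p = 1.54e-22). Menthae Herba gave 202, 217 and 217 CPM against 322, 319 and 322 CPM, 1.52-fold lower (adjusted p = 6.44e-09). With Polygalae Radix it was 1.39-fold lower, with Guibi-tang 1.33-fold and with Soyo-san 1.25-fold (adjusted p = 9.69e-06, 1.11e-05 and 0.0277). The Polygalae Radix libraries differed more from each other, at 245 and 180 CPM, than those of the other extracts. The call with Soyo-san was lost without replicate 1 of its high dose (log2 -0.27), replicate 1 of its low dose (-0.24) or replicate 2 of its high dose (-0.36).

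RNF43 and ZNRF3, the ligases that remove Frizzled, were both lower with Aucklandiae Radix and both higher with Polygalae Radix, the extracts of set 11. Aucklandiae Radix lowered RNF43 from 163 and 157 CPM to 58.5 and 66.9 CPM (log2 -1.36 ± 0.06, adjusted p = 2.01e-25). It lowered ZNRF3 from 143 and 145 CPM to 64 and 71 CPM (-1.10 ± 0.06, adjusted p = 2.36e-21). Polygalae Radix raised ZNRF3 from 138 CPM in both low-dose libraries to 215 and 198 CPM, above the 159 to 169 CPM of vehicle (0.57 ± 0.06, adjusted p = 1.55e-12). It raised RNF43 from 150 and 152 CPM to 192 and 170 CPM, a level that overlapped vehicle (0.26 ± 0.05, adjusted p = 4.86e-05). With Menthae Herba both were lower, RNF43 with a log2 change of -0.13 ± 0.04 and ZNRF3 with -0.20 ± 0.05. The RNF43 call was lost without replicate 1 or 3 of the low dose (-0.10 and -0.13) or replicate 2 or 3 of the high dose (-0.11 and -0.12). Guibi-tang lowered RNF43 (-0.19 ± 0.04), while its ZNRF3 libraries overlapped between doses, with an interval from -0.01 to 0.17.

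LGR5, the R-spondin receptor, gave the largest change of any target. At the high dose of Aucklandiae Radix it was at 16.8 and 24.6 CPM, against 164 and 155 CPM at the low dose and 122 in both medium-dose libraries, 7.75-fold lower than at the low dose (log2 -2.95 ± 0.08, adjusted p = 1.72e-32). Polygalae Radix gave 63.2 and 68.7 CPM against 150 and 153 CPM, 2.31-fold lower (-1.21 ± 0.07, adjusted p = 6.26e-20). Guibi-tang gave 87.8, 85.4 and 89 CPM against 161, 167 and 157 CPM, 1.85-fold lower (-0.89 ± 0.06, adjusted p = 1.25e-17). With Menthae Herba it was at 137, 122 and 119 CPM against 146, 153 and 155 CPM, 1.2-fold lower (adjusted p = 2.12e-04). In these 4 extracts every high-dose library lay below every low-dose library, a trait not counted over all tested genes. The same held for Saposhnikoviae Radix, with 134 to 144 against 152 to 163 CPM, and for Saengmaek-san, with 147 to 150 against 155 to 171 CPM, but neither was called (-0.16 ± 0.06 and -0.13 ± 0.05, adjusted p = 0.199 and 0.528). Soyo-san left it at 165 and 169 CPM against 163 and 167 CPM, with an interval from -0.12 to 0.15.

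Among the transcription factors SP5 fell where LGR5 fell, except with Polygalae Radix. SP5, whose upstream stretch holds the 3 elements printed above, was at 49.1 and 62.6 CPM at the high dose of Aucklandiae Radix and at 195 and 186 CPM at the low dose, 3.42-fold lower (log2 -1.77 ± 0.13, adjusted p = 4.74e-17). Guibi-tang gave 107, 105 and 108 CPM against 180, 164 and 184 CPM (-0.73 ± 0.10, adjusted p = 4.88e-08), and Menthae Herba gave 145, 128 and 159 CPM against 205, 204 and 176 CPM (-0.45 ± 0.10, adjusted p = 3.44e-04). With Polygalae Radix the high-dose libraries, at 242 and 191 CPM, overlapped the low-dose libraries at 152 and 201 CPM. That difference was called higher (0.28 ± 0.12, adjusted p = 0.0334) but not without replicate 2 of the high dose (0.09) or replicate 2 of the low dose (0.10). TBX3, which in the liver is tied to beta-catenin driven tumours, was called higher with Guibi-tang, at 113, 112 and 116 CPM against 90.2, 90.4 and 90.3 CPM (0.33 ± 0.04, adjusted p = 2.47e-09). With Menthae Herba it was called lower, at 83, 82.7 and 83.7 CPM against 93.3, 88.8 and 87.4 CPM (-0.12 ± 0.04, adjusted p = 0.0251), a call lost without replicate 1 or 2 of the high dose (-0.11 in both cases) or of the low dose (-0.08 and -0.12). LEF1 had log2 values of 1.07, 1.04 and 1.17 with Polygalae Radix, Aucklandiae Radix and Guibi-tang (adjusted p = 0.0825, 0.106 and 0.0823).

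GLUL, the pericentral enzyme that makes glutamine from ammonia, was lower with the extracts of set 11. It was at 320 and 322 CPM at the high dose of Polygalae Radix against 475 and 498 CPM at the low dose, 1.52-fold lower (log2 -0.61 ± 0.04, adjusted p = 1.21e-18). Aucklandiae Radix gave 337 and 335 CPM against 435 and 438 CPM, 1.3-fold lower (-0.38 ± 0.04, adjusted p = 4.19e-12). These 2 high-dose groups were the only ones below vehicle by more than 100 CPM in the mean, at 321 and 336 against 441 CPM. Changes with Menthae Herba (-0.11 ± 0.03) and Guibi-tang (0.08 ± 0.03) were called but small. The first was lost without replicate 1 of the low dose (-0.09), the second without replicate 1 or 3 of the high dose (0.08 in both cases) or replicate 2 or 3 of the low dose (0.07 and 0.09).

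**Figure D2:**
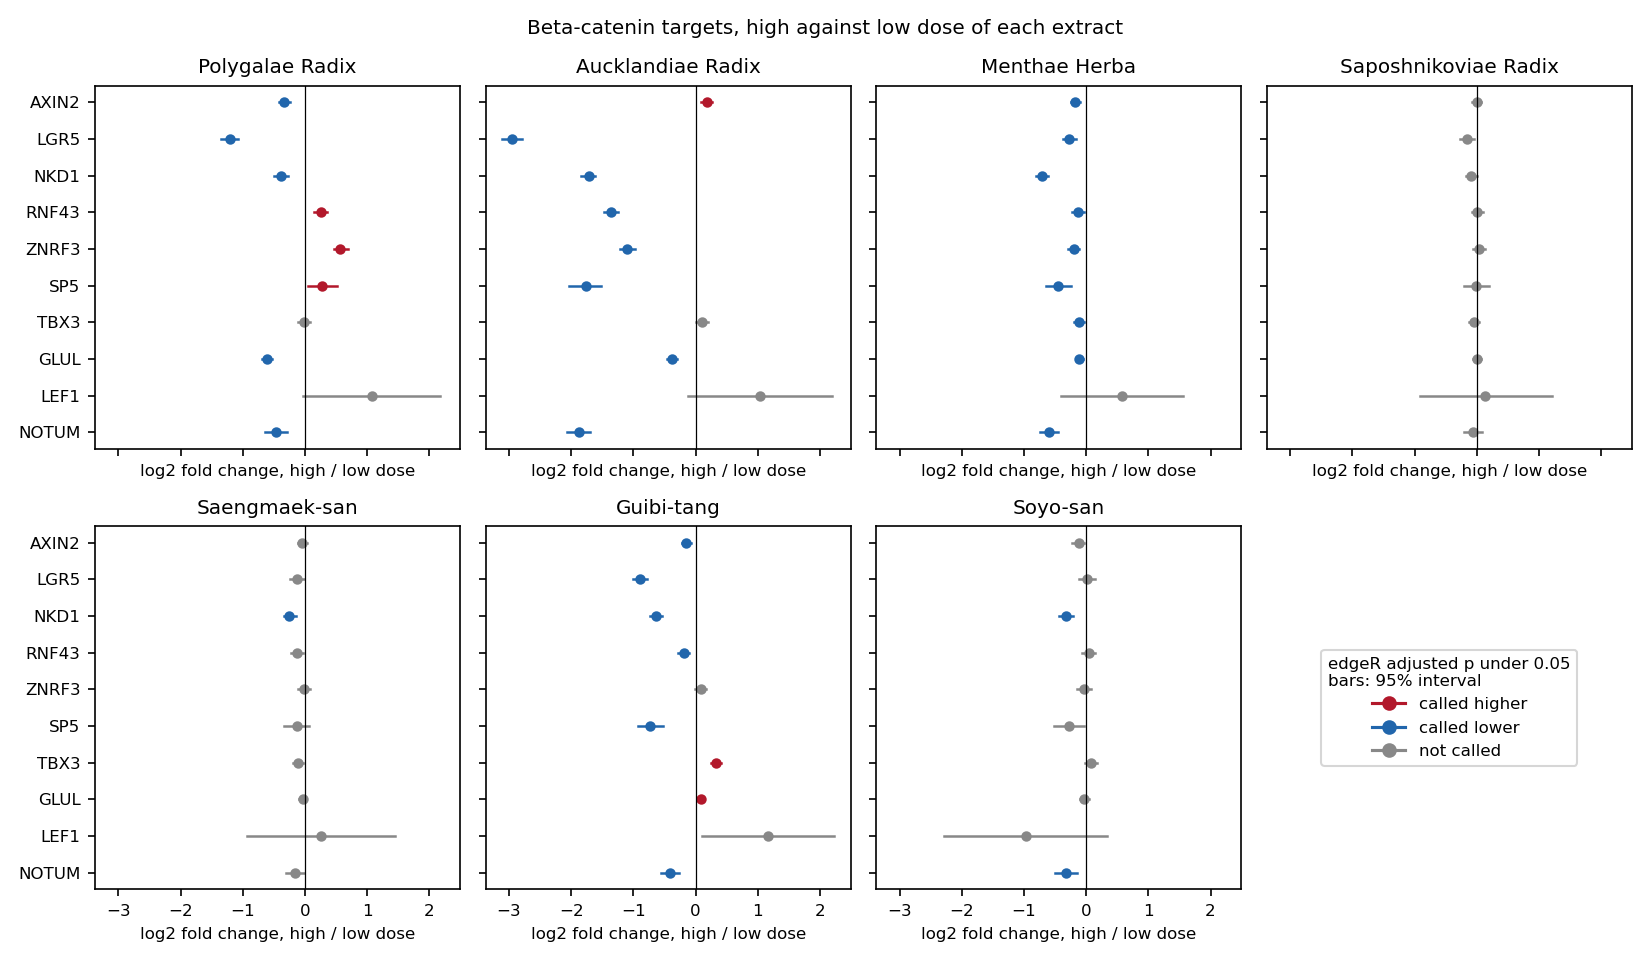
Log2 fold change of high against low dose (horizontal axes) for each target (vertical axes) in the 7 extracts with at least 2 libraries per group; points are estimates, bars 95% intervals, red called higher, blue called lower and grey not called. With Aucklandiae Radix 7 targets lie between -2.95 and -0.38 while AXIN2 lies at 0.18, and the wide bars of LEF1 cross or come near 0 throughout.

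Counted by extract, the share of targets called has to be read against the share of all genes called in the same comparison. With Polygalae Radix 3 targets were called higher and 5 lower, where 31.1% of all tested genes were called higher and 33% lower. With Aucklandiae Radix it was 1 higher and 7 lower, against 33.9% and 35.5% of all genes, and the median log2 change of the 10 targets was -1.23 against -0.02 for all genes. Menthae Herba had 0 higher and 9 lower, against 10.8% and 12.5%, with a median of -0.19 against 0.00. That count of 9 fell to between 6 and 8 when single libraries were left out. Guibi-tang had 2 higher and 6 lower, against 16.8% and 17.5%. With Soyo-san 0 were higher and 2 lower (NKD1 and NOTUM), against 2.13% and 1.83%. Saengmaek-san had 0 higher and 1 lower (NKD1), against 0.206% and 0.23%. For Saposhnikoviae Radix none was called by edgeR, where 0.389% of all genes were higher and 0.442% lower. There 1 target had an unadjusted p under 0.05, and DESeq2 called 1.

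The same high-dose groups differed in other measured respects. Mean summed hepatocyte markers were 18400 ± 2620 and 21600 ± 354 CPM at the high doses of Polygalae Radix and Aucklandiae Radix (SD, n = 2), against 47900 and 47800 CPM at their low doses. They were 24900 ± 1720 CPM with Menthae Herba and 36100 ± 781 CPM with Guibi-tang (SD, n = 3), against 50700 and 50000 CPM. Mitosis genes summed to 929, 793, 1630 and 1230 CPM in these 4 high-dose groups and to 1900, 1970, 2020 and 2050 CPM at the low doses. All 7 mitosis genes were called lower with Aucklandiae Radix and with Guibi-tang, where 35.5% and 17.5% of all genes were. With Polygalae Radix 6 were lower and CDK1 higher, against 33% and 31.1% of all genes. With Menthae Herba 6 were lower, against 12.5%. With Saposhnikoviae Radix, Saengmaek-san and Soyo-san none of the 7 was called. There at most 0.442%, 0.23% and 2.13% of all genes were called in either single direction, so few calls among 7 genes could arise. The part of these differences in the results for the targets was not tested.

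At the medium dose, a step of 5 below the high dose, few targets were called against the low dose. With Aucklandiae Radix LGR5 and NKD1 were lower, each by a log2 change of -0.39 (adjusted p = 1.01e-04 and 2.24e-06), where 4.35% of all genes were called in either direction. In Guibi-tang the same 2 genes were lower, by -0.26 and -0.18, where 3.6% were called. The NKD1 call there was lost without replicate 1 of the low dose (-0.13) or replicate 2 or 3 of the medium dose (-0.17 in both cases). With Polygalae Radix RNF43 (0.21 ± 0.05), ZNRF3 (0.19 ± 0.06) and SP5 (0.42 ± 0.12) were higher, where 8.41% were called. That share rests on the spread of all groups in the fit. When only its medium and low dose groups were fitted, 1 of 14927 genes was called higher and 19 lower. The count of 3 with Polygalae Radix became 0 without replicate 2 of the medium dose or replicate 2 of the low dose, 1 without replicate 3 of the low dose, and 0 in a fit of those groups alone. No target was called by edgeR or by DESeq2 with Menthae Herba, Saposhnikoviae Radix, Saengmaek-san or Soyo-san, where 0.118%, 0.0118%, 0% and 0.00589% of all genes were called. Of the 10 targets 1, 0, 2 and 0 had an unadjusted p under 0.05 there. For Saengmaek-san, where edgeR called 0 genes at all, 772 had an unadjusted p under 0.05 and DESeq2 called 2.

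Against vehicle, most targets were called at each high dose, but so were many genes. The number called was 7 with Polygalae Radix, where 66.9% of all genes were called in either direction, 9 with Aucklandiae Radix (73.3%), 8 with Menthae Herba (48.2%), 9 with Saposhnikoviae Radix (40.1%), 7 with Saengmaek-san (40.5%), 8 with Guibi-tang (51%) and 7 with Soyo-san (38.8%). ZNRF3 was the only target called higher with Polygalae Radix (0.32 ± 0.05). GLUL was the only one called higher with Saposhnikoviae Radix (0.11 ± 0.03) and with Guibi-tang (0.13 ± 0.03). All other calls were lower. Those of LGR5 and SP5 with Saposhnikoviae Radix (-0.14 ± 0.06 and -0.24 ± 0.10) rested on single libraries. The LGR5 call was lost without any 1 vehicle library or replicate 1 or 2 of the extract (-0.14 to -0.11), and that of SP5 without replicate 2 or 3 of vehicle or of the extract (-0.25 to -0.15). The low doses of the 7 tested extracts were also pooled in place of vehicle. Then 1 target was called with Saposhnikoviae Radix, 4 with Saengmaek-san and 4 with Soyo-san. Of the 16982 genes tested, 263 were then called higher and 240 lower with Saposhnikoviae Radix. With Saengmaek-san 53 were higher and 112 lower, and with Soyo-san 794 were higher and 727 lower.

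In 2 pairs of extracts that share a set and doses, the dose responses themselves were compared. Menthae Herba lowered 5 targets more than Saposhnikoviae Radix did, where 10.6% of all genes differed in either direction. The differences in log2 fold change were -0.62 ± 0.06 for NKD1 (adjusted p = 4.36e-10), -0.54 ± 0.10 for NOTUM, -0.44 ± 0.14 for SP5, -0.24 ± 0.07 for ZNRF3 and -0.17 ± 0.05 for AXIN2. That count was 3 without replicate 1 of the high dose or replicate 1 of the low dose of Menthae Herba, and 2 without replicate 1 of the high dose of Saposhnikoviae Radix. AXIN2 lost its call (-0.17 to -0.14) without replicate 1 of the high dose of either extract, or replicate 1 or 3 of the low dose of either. SP5 lost its call (-0.43 to -0.35) without replicate 1 of either dose of either extract, or replicate 2 of either dose of Menthae Herba. ZNRF3 lost it without replicate 1 of the high dose of Saposhnikoviae Radix (-0.20) or replicate 3 of the high dose of Menthae Herba (-0.19). LGR5 did not pass, with an interval of the difference from -0.26 to 0.05. Guibi-tang and Saengmaek-san differed in 5 targets, where 19.6% of all genes differed. LGR5 (-0.77 ± 0.08), SP5 (-0.59 ± 0.14) and NKD1 (-0.39 ± 0.06) were lower with Guibi-tang, and TBX3 (0.44 ± 0.06) and GLUL (0.12 ± 0.04) higher. The GLUL call was lost (0.10 to 0.12) without replicate 1 or 3 of the low dose or replicate 2 of the high dose of Saengmaek-san, or replicate 1 or 3 of the high dose or 2 or 3 of the low dose of Guibi-tang. For AXIN2 the interval ran from -0.21 to 0.00. Doses of Polygalae Radix and Aucklandiae Radix differ, so their values stand side by side without a test.

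Okbyeongpung-san had 1 library per dose and so no replicate check and no spread against which to read its differences between doses. Of the targets given here, LGR5, NKD1 and GLUL were lower at each step up in dose, while AXIN2 and NOTUM were not. AXIN2 was at 117, 112 and 117 CPM at the high, medium and low dose, LGR5 at 147, 151 and 159 CPM and NKD1 at 408, 437 and 462 CPM. Its GLUL was at 427, 440 and 453 CPM and its NOTUM at 312, 312 and 336 CPM. For AXIN2, NKD1 and NOTUM these lay below the vehicle libraries, as in the other extracts.

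As a description, the targets were compared by their mean log2 CPM over the 25 groups, which share libraries' depth and scaling within a group. NKD1 and NOTUM went most closely together (Pearson r = 0.97, and 0.92 without the high doses of Polygalae Radix and Aucklandiae Radix, 23 groups), followed by RNF43 and SP5 (0.94 and 0.80). AXIN2 stood apart over the 25 groups, with r from -0.39 (ZNRF3) to 0.12 (LEF1) except for TBX3 at 0.52. Without those 2 high doses its r was 0.75 with NKD1, 0.82 with NOTUM and 0.79 with RNF43, but 0.18 with LGR5 and 0.06 with GLUL. The 23 groups include vehicle, the highest group for AXIN2, NKD1, NOTUM and RNF43. AXIN2 averaged 164 CPM there against 133 CPM in the next group, the low dose of Aucklandiae Radix. Vehicle has its own set label, and r without it was not taken, so these r values may rest on that 1 group. The 5 genes most like AXIN2 over the 25 groups were UBXN6 (0.893), FAM222A (0.868), GRB2 (0.859), BAZ2A (0.853) and PIGT (0.851). Without the 2 high doses they ranked 54, 26, 51, 134 and 23.

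**Figure D3:**
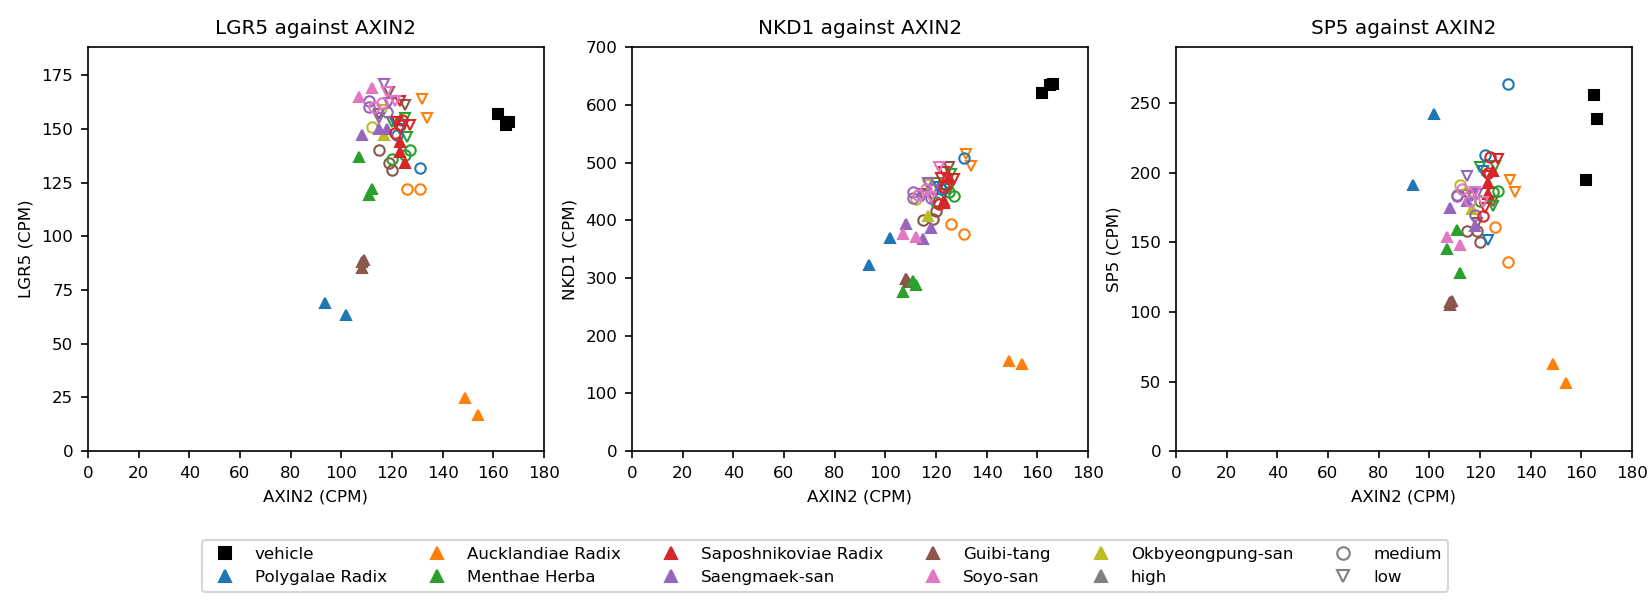
Level of LGR5, NKD1 and SP5 (vertical axes, CPM) against that of AXIN2 (horizontal axes, CPM) in each of the 60 libraries; colour gives the extract and shape the dose. The Aucklandiae Radix high-dose libraries stand alone at the lower right, with AXIN2 at 149 and 154 CPM and LGR5 at 24.6 and 16.8 CPM, and vehicle stands at the right with AXIN2 at 162 to 166 CPM.

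The pathway upstream of the targets was read from lists of its parts. CTNNB1, beta-catenin itself, was lower with Polygalae Radix, at 132 and 130 CPM at the high dose against 407 and 410 CPM at the low dose, 3.14-fold lower (log2 -1.65 ± 0.04, adjusted p = 2.18e-32). With Aucklandiae Radix it was at 407 and 406 CPM against 424 and 421 CPM and was not called (-0.06 ± 0.04). Guibi-tang lowered it by -0.20 ± 0.04. Of the 14 genes of beta-catenin and its destruction complex, all tested, 9 were higher and 3 lower with Polygalae Radix, where 31.1% and 33% of all genes were, with a median log2 change of 0.32 against -0.01 for all genes. With Aucklandiae Radix 11 were higher and 2 lower, where 33.9% and 35.5% of all genes were, with a median of 0.44 against -0.02. AXIN1, the constitutive relative of AXIN2, was 2.3-fold higher with Polygalae Radix (adjusted p = 1.19e-15) and 1.17-fold higher with Aucklandiae Radix (adjusted p = 0.0334), the latter not called without any 1 of its 4 libraries (0.20 to 0.25). APC, the scaffold lost in many colon tumours, was higher with Aucklandiae Radix (0.45 ± 0.07). AMER1, a membrane adaptor of the complex, was at 9.28 and 11.5 CPM against 44.7 and 42.4 CPM with Aucklandiae Radix, 4.21-fold lower (adjusted p = 2.99e-29).

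Of 14 tested genes for Wnt and R-spondin receptors and R-spondins, 12 were higher and 1 lower with Polygalae Radix (31.1% and 33% of all genes), 3 higher and 9 lower with Aucklandiae Radix (33.9% and 35.5%), 0 higher and 6 lower with Menthae Herba (10.8% and 12.5%), and 4 higher and 3 lower with Guibi-tang (16.8% and 17.5%). Differences between extracts in these counts were not tested. Frizzled genes went both ways: FZD7 was 5.41-fold higher and FZD4 2.82-fold lower with Aucklandiae Radix, and FZD9 was 2.62-fold higher with Polygalae Radix and 2.4-fold lower with Aucklandiae Radix. Of 14 tested nuclear partners of beta-catenin 11 were higher and 0 lower with Polygalae Radix, against 31.1% and 33% of all genes, among them TCF7L2, the main TCF factor of liver (0.98 ± 0.07), and the co-repressor TLE3 (1.23 ± 0.07). With Aucklandiae Radix 5 were higher and 5 lower, close to the 33.9% and 35.5% of all genes. The co-activator BCL9L was 3.02-fold higher there, and CTNNBIP1, an inhibitor that binds beta-catenin, 2.8-fold lower. Menthae Herba had 0 higher and 6 lower, Guibi-tang 1 higher and 5 lower.

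Ligands were scarce. Of 21 listed genes for Wnt ligands and their secretion 6 were tested. WNT9A was at 4.64 and 3.48 CPM at the high dose of Aucklandiae Radix and at 0.0768 and 0 CPM at the low dose (adjusted p = 3.84e-11). WNT7B was 2.56-fold higher with Polygalae Radix and 3.52-fold lower with Aucklandiae Radix, the latter not called without replicate 2 of its high dose (log2 -1.57) or of its low dose (-1.23). PORCN, which adds the lipid to Wnt ligands, was 1.57-fold lower and 1.97-fold higher with these. Among the 9 tested further Wnt inhibitors 5 were lower and 0 higher with Aucklandiae Radix, where 35.5% of all genes were lower and 33.9% higher. With Menthae Herba 4 were lower and 0 higher, against 12.5% and 10.8%. DKK1, a secreted LRP antagonist, was at 29.8 and 32.6 CPM against 107 and 105 CPM with Aucklandiae Radix, 3.41-fold lower. It was 1.91-fold lower with Guibi-tang and 1.36-fold lower with Menthae Herba, and with Polygalae Radix its change was -0.04 ± 0.07. KREMEN1, a co-receptor of DKK proteins, was 2.87-fold lower with Aucklandiae Radix. NKD2, the relative of NKD1, was 2.19-fold higher with Polygalae Radix, but not called without replicate 2 of its high dose (log2 0.80).

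Of further listed beta-catenin targets 9 were tested, and they went both ways. With Polygalae Radix 4 were higher and 3 lower, with Aucklandiae Radix 3 higher and 4 lower, with Menthae Herba 2 higher and 4 lower, and with Guibi-tang 3 higher and 2 lower. The shares for Polygalae Radix and Aucklandiae Radix lie near the 31.1% to 35.5% of all genes called in each direction there. For Menthae Herba the shares of all genes were 10.8% and 12.5%, for Guibi-tang 16.8% and 17.5%. TNFRSF19, a receptor gene of the TNF family, was at 30.5 and 38.1 CPM against 183 and 178 CPM with Aucklandiae Radix, 5.26-fold lower. It was 2.49-fold lower with Polygalae Radix, 1.3-fold with Guibi-tang and 1.23-fold with Menthae Herba. MYC, a growth regulator, was 2.68-fold higher with Polygalae Radix. ID2, an inhibitor of helix-loop-helix factors, was 2.34-fold higher with Aucklandiae Radix and 2.05-fold lower with Menthae Herba.

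Pericentral and periportal genes lie in liver on opposite sides of the Wnt gradient. With Polygalae Radix 0 of 8 tested pericentral genes were higher and 5 lower, and 0 of 8 periportal genes were higher and 7 lower, against 31.1% and 33% of all genes. With Aucklandiae Radix 2 pericentral genes were higher and 4 lower, not far from the 33.9% and 35.5% of all genes, and 1 periportal gene was higher and 6 lower. SLC13A3, a pericentral dicarboxylate transporter, was lower in all 7 extracts, from 7.66-fold with Polygalae Radix (7.91 and 7.41 CPM against 58.2 and 58.8 CPM) to a log2 change of -0.39 ± 0.06 with Soyo-san. The glutamate transporter SLC1A2 was 3.83-fold lower with Polygalae Radix but 1.71-fold higher with Aucklandiae Radix. RGN, a calcium-binding enzyme, was 3.18-fold and 2.53-fold lower with these. The urea cycle genes CPS1 and ASS1, which are periportal, were 3.8-fold and 3.21-fold lower with Aucklandiae Radix, and GLS2, a periportal glutaminase, was 3.65-fold lower. In Guibi-tang ASS1 was 1.53-fold higher.

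**Figure D4:**
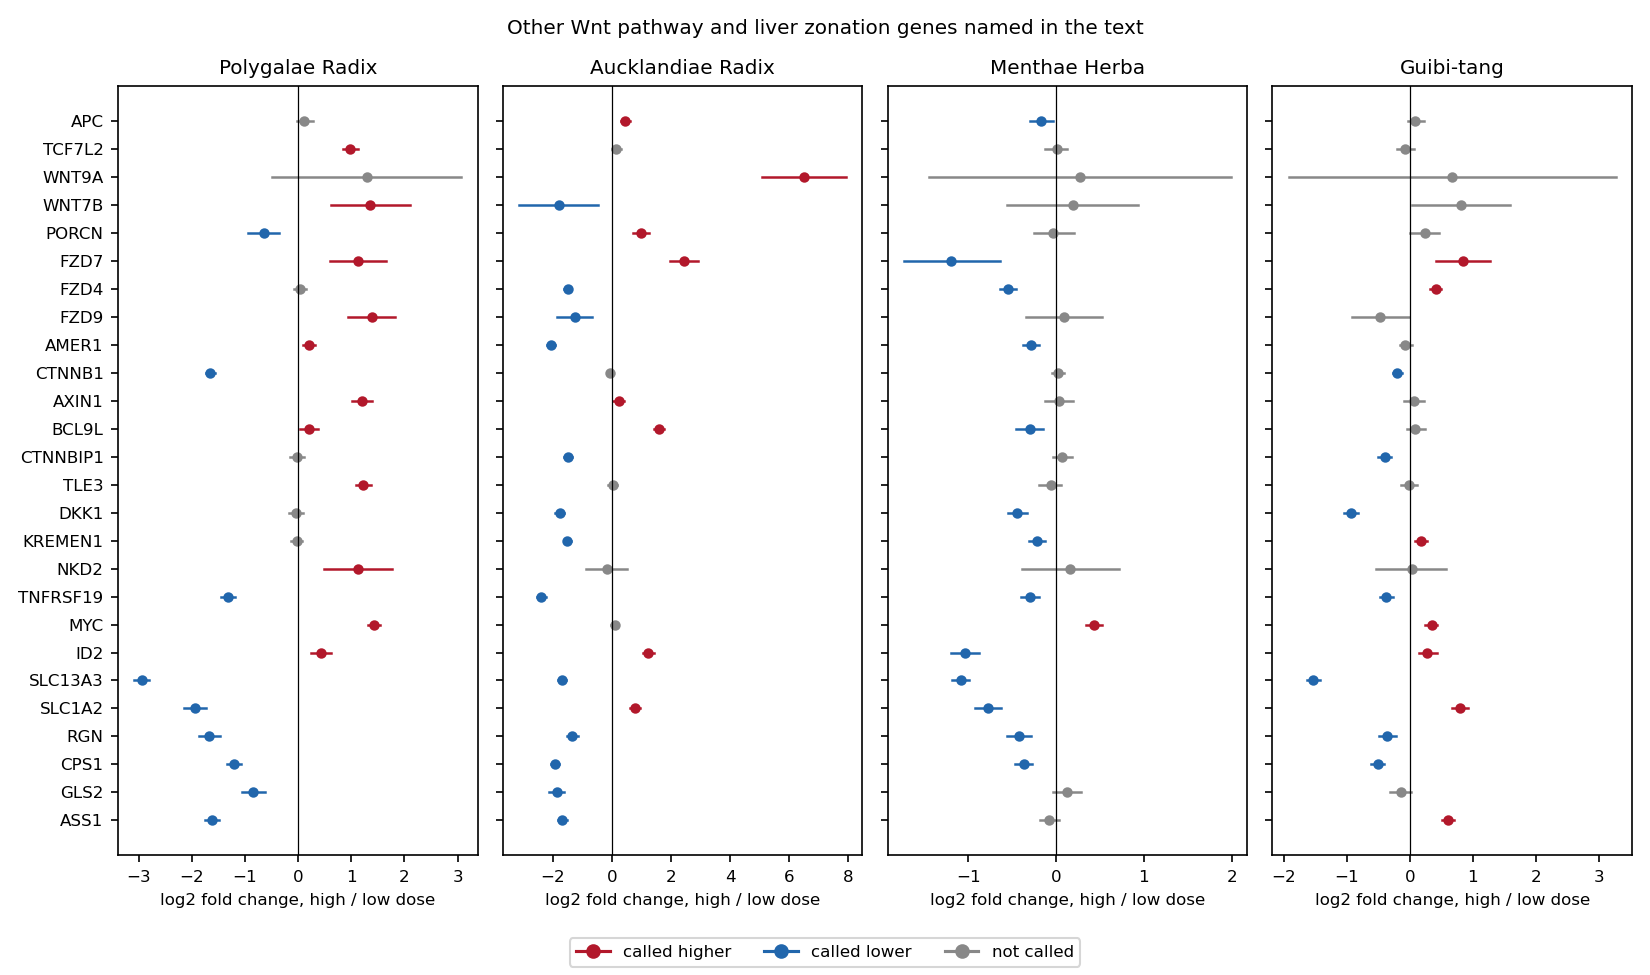
Log2 fold change of high against low dose (horizontal axes, each extract on its own scale) for 26 further genes of the Wnt pathway and of liver zonation (vertical axis) in 4 extracts; points are estimates, bars 95% intervals, red called higher, blue called lower and grey not called. CTNNB1 lies at -1.65 with Polygalae Radix and at -0.06 with Aucklandiae Radix, and SLC13A3 lies below 0 in all 4.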

How the data were processed

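RNA was sequenced from HepG2 cells in 60 libraries. The authors used Trim Galore 0.6.5, STAR 2.7.3a with GRCh38, and RSEM 1.3.3, per the submitters' processing notes. The deposited values are expected counts per gene, not normalized. Of these 10% were not whole numbers, and they were rounded. Which annotation release and which strand setting they used is not given in the sources used here. GENCODE 29 gave symbols and positions.

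Genes were tested in R 4.3.3 with edgeR 4.0.16 (quasi-likelihood test, TMM scaling, filterByExpr with a minimum count of 10) in 57 libraries and 22 groups with 35 residual degrees of freedom. Called means a Benjamini-Hochberg adjusted p under 0.05 over the 16982 genes of a comparison. The common dispersion was 0.00216. CPM are TMM-scaled counts per 1 M. The code was also run on simulated counts with the same dispersion for all genes and few genes changed. The data differ in both, so that run does not give the error rate here. No library was a copy of another of its group (lowest chi-square per gene 1.82 over 48 pairs, median 3.77, highest 17.4). Some replicates differed far more than most. The value was 17.2 and 17.4 at the high and medium dose of Polygalae Radix. It was 15.0 and 17.3 for pairs with replicate 2 of Guibi-tang high, and 16.4 and 15.3 with replicate 1 of vehicle. Replicates 2 and 3 of Saengmaek-san low gave 16.1.

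The targets, gene lists and tests were chosen with earlier results of these data known. Other genes named were CTNNB1, APC, AXIN1 and TCF7L2, up to 3 per list of Wnt and zonation genes with the largest called change of high against low dose where the higher group reached 1 CPM, and the 5 genes most correlated with AXIN2. Alternatives were DESeq2 1.42.0, RLE scaling, other filters, a fit of only the compared groups, a GC and length trend, a replicate block, pooled low doses in place of vehicle, and each library left out. Where this left 1 library in a group, it was assumed to vary like the others.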

Additional observations from a re-analysis of the deposited data

Results flagged for a closer look

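Within a set and at matched doses, 2 pairs of extracts differed in the dose response of a target by a test of the difference itself (edgeR, high against low dose). Between Menthae Herba and Saposhnikoviae Radix the log2 differences were -0.17 for AXIN2 (adjusted p = 0.021), -0.62 for NKD1 (4.36e-10), -0.24 for ZNRF3 (0.00954), -0.44 for SP5 (0.0261) and -0.54 for NOTUM (1.43e-04). Between Guibi-tang and Saengmaek-san they were -0.77 for LGR5 (1.75e-10), -0.39 for NKD1 (7.52e-06), -0.59 for SP5 (0.00107), 0.44 for TBX3 (4.61e-08) and 0.12 for GLUL (0.0439).

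Polygalae Radix and Aucklandiae Radix, the extracts of set 11, moved 4 targets in opposite directions, each called in both. Of all genes 31.1% were called higher and 33% lower with Polygalae Radix, and 33.9% and 35.5% with Aucklandiae Radix. How many of all genes were called in opposite directions was not counted, so these 4 do not set the targets apart. Polygalae Radix minus Aucklandiae Radix came to -0.51 for AXIN2, 1.61 for RNF43, 1.67 for ZNRF3 and 2.05 for SP5 in log2 fold change. These differences were not tested, since the doses differ. The SP5 libraries of Polygalae Radix overlapped between doses. That SP5 call was lost without replicate 2 of the high dose (log2 0.09) or of the low dose (0.10).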

How the results depend on the processing

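Of the counts of targets called, those of Guibi-tang, Menthae Herba, Aucklandiae Radix and Polygalae Radix at high against low dose stayed within 1.5 times under each alternative. When single libraries were left out, counts ran from 0 to 4 for Polygalae Radix and from 1 to 2 for Guibi-tang (medium against low dose), from 1 to 2 for Soyo-san (high against low dose), and from 2 to 5 for Menthae Herba minus Saposhnikoviae Radix. With the GC and length trend removed, the count at medium against low dose was 1 for Polygalae Radix and 4 for Aucklandiae Radix. Of 16982 genes, 381 were then called higher and 842 lower for Polygalae Radix, and 671 higher and 625 lower for Aucklandiae Radix. For Saengmaek-san (high against low dose) the count was 2, with 87 of all genes higher and 83 lower. In a fit of only the compared groups the count was 0 for Polygalae Radix and 1 for Menthae Herba (medium against low dose). There 1 of 14927 genes was called higher and 19 lower for Polygalae Radix, and 87 and 144 of 14798 for Menthae Herba. Such a fit gave 1 target for Saposhnikoviae Radix (high against low dose), with 194 of 14860 genes higher and 195 lower. DESeq2 also gave 1 there, with 97 of 12351 genes higher and 117 lower. Without a filter the count was 3 for Menthae Herba minus Saposhnikoviae Radix, where 817 of 35642 genes were higher and 817 lower. With pooled low doses in place of vehicle it was 1 for Saposhnikoviae Radix, 4 for Saengmaek-san and 4 for Soyo-san. The counts with pooled low doses are to be read beside the numbers of all genes called there, given above. For single libraries left out, the numbers of all genes called are not given here.

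With pooled low doses in place of vehicle these log2 changes turned positive: AXIN2 0.30 (Aucklandiae Radix) and 0.01 (Saposhnikoviae Radix), RNF43 0.23, 0.06 and 0.01 (Polygalae Radix, Saposhnikoviae Radix, Soyo-san), SP5 0.21 and 0.05 (Polygalae Radix, Saposhnikoviae Radix), TBX3 0.10, 0.20 and 0.30 (Polygalae Radix, Aucklandiae Radix, Guibi-tang), and ZNRF3 0.09 and 0.04 (Guibi-tang, Saposhnikoviae Radix). With the GC and length trend removed, alone and with the replicate block, AXIN2 and TBX3 with Aucklandiae Radix against vehicle became 0.10 and 0.05, and with Polygalae Radix (high against low dose) CTNNBIP1 became 0.13, or 0.14 with the block, and DKK1 0.21. The cause was not tested. A change of sign where neither value was called was not counted.

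Deviations of same-numbered libraries at the high and low dose of an extract correlated between -0.108 and 0.207. Those of different numbers correlated between -0.268 and 0.232. Libraries of 1 number were not compared between the 2 extracts of a set, so pairing by number is not excluded. With the replicate block the count for Polygalae Radix, high against low dose, was 7 in place of 8, and for Menthae Herba minus Saposhnikoviae Radix 6 in place of 5. Of 16982 genes, 5272 were called higher and 5609 lower with the block for Polygalae Radix, and 769 and 1113 for that difference. With the block and the trend together the count was 4 for Aucklandiae Radix (medium against low dose), with 696 genes higher and 689 lower. It was 2 for Saengmaek-san (high against low dose), with 105 genes higher and 97 lower. Removing the GC and length trend moved the median log2 change of all genes by 0.105 for Polygalae Radix (high against low dose), to 0.094, the value against which the 0.13 of CTNNBIP1 and 0.21 of DKK1 there are to be read. It moved that of Aucklandiae Radix by 0.096, and DESeq2 by 0.093. LEF1, with a median of 5 counts, is limited by depth.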
